A study of Mus musculus with 6 samples.

Results

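The 10 genes described here belong to the cartilage programme and code for no collagen: the transcription factor genes Sox9, Sox5 and Sox6, the signal gene Ihh, and the matrix genes Acan, Hapln1, Comp, Matn1, Matn3 and Matn4. They were taken by name, with earlier results of these data known, and followed in osteoblastic cells. The arrays read probe sets, each a group of short DNA probes summarised as 1 value. All 10 were among the 19935 genes measured with a probe set carrying exactly 1 gene symbol. Each of the 10 had 1 such probe set. RNA came from cells of male mice lacking the neuropeptide Y receptor Y1 (Y1KO, 2 arrays) and of male wild-type mice (WT, 4 arrays), and the comparison asks what changes in osteoblastic cells without this receptor. In both genotypes, marrow stromal cells of femora and tibias grew for 7 days and were sorted for green fluorescence, which a collagen I promoter fragment of 3.6 kb from the rat drives in osteoblast-lineage cells. The fluorescent transgene was thus shared by Y1KO and WT. The labels name no age or strain and do not say how or in which cells the receptor was removed. Nor do they tie an array to a mouse, and the p-values rest on array-to-array spread alone, part of which may be technical.

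Chondrocytes, the cells of cartilage, are specified by SOX9, and SOX5 and SOX6 bind beside SOX9 to strengthen its action on cartilage genes. The matrix that follows is built on aggrecan (Acan), a very large proteoglycan that is locked onto hyaluronan by link protein (Hapln1), while COMP and the matrilins bridge collagen fibrils and proteoglycans. Indian hedgehog (Ihh) is secreted by chondrocytes that are about to enlarge, and it paces their maturation and the formation of bone next to cartilage. Osteoblasts and chondrocytes descend from common skeletal progenitors, and SOX9 falls silent as the osteoblast fate is taken.

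Of the 10 genes, 2 rose in Y1KO cells and 0 fell, by limma and also at an unadjusted p under 0.05. The share of all genes at that unadjusted limit was not counted. Link protein Hapln1 rose 2.53-fold and Sox6 rose 1.36-fold, while Sox9, Sox5, Ihh, Acan, Comp, Matn1, Matn3 and Matn4 did not pass the test. A gene was called at an adjusted p under 0.05 in a linear model with moderated variance (limma), and over all genes 12.7% were called, 6.1% higher and 6.64% lower in Y1KO, the background against which 2 of 10 is to be read. The 8 genes that did not pass had differences between -0.24 and 0.28 (Y1KO minus WT, log2), with 95% intervals that together reached from -0.55 to 0.75. The median difference of the 10 genes was 0.066, against 0.0071 over all genes. Most of these probe sets were dim, with 7 of 10 in Y1KO and 8 of 10 in WT below the median of all genes, and near the background an array understates differences. Col1a1, the main collagen gene of bone, read 13.60 ± 0.03 (SD, n = 2) in Y1KO and 13.42 ± 0.05 (SD, n = 4) in WT, near the top of the range of all genes. In sorted but mixed cells, fewer cells of a type and less RNA per cell cannot be told apart.

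**Figure D1:**
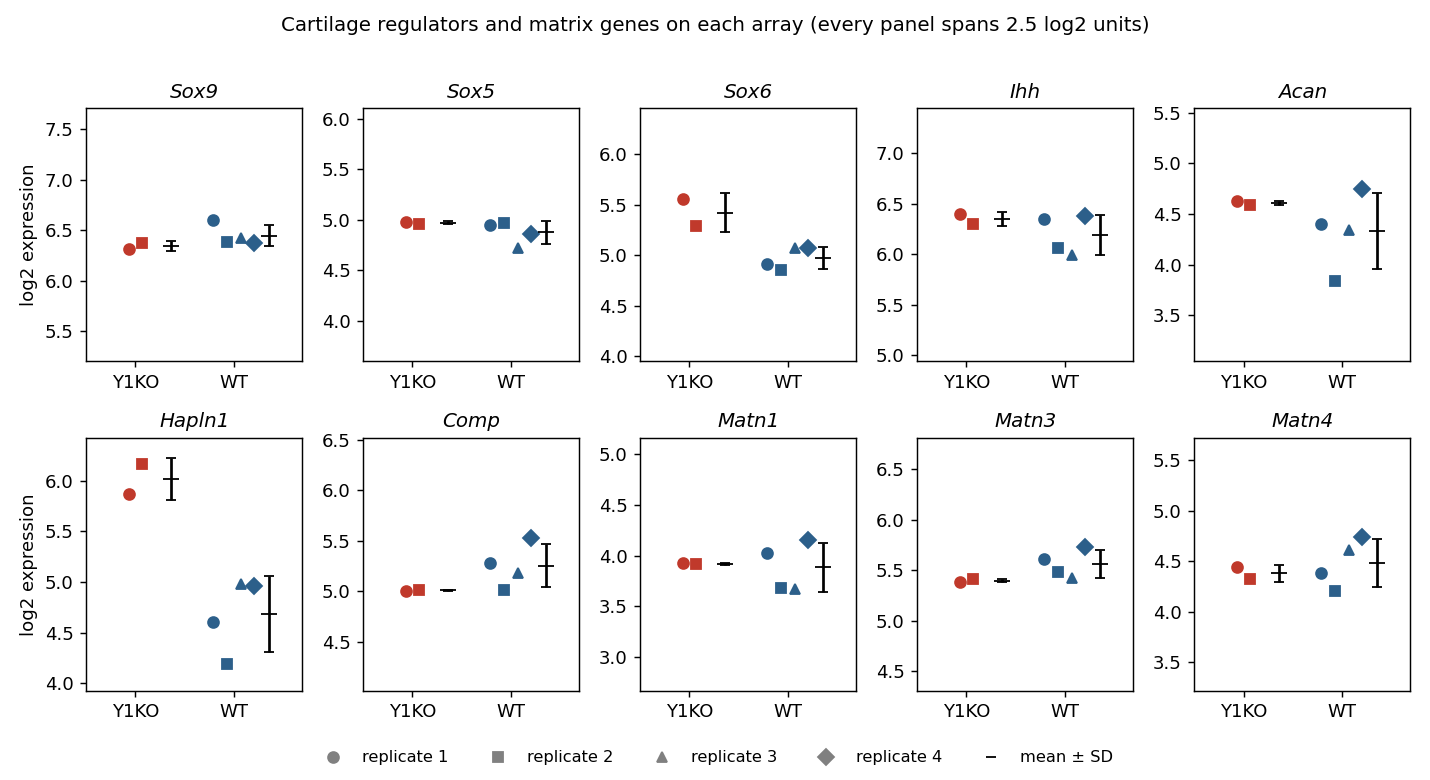
Log2 expression of the 10 genes on each array (y axis, every panel spanning 2.5 log2 units), with the 2 Y1KO arrays in red left of the 4 WT arrays in blue and the mean ± SD in black. For Hapln1 and Sox6 both Y1KO points lie above the 4 WT points, whereas for Acan, Ihh, Sox9, Sox5, Matn1 and Matn4 the genotypes overlap.

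Among the regulators, Sox9, the master factor of the chondrocyte fate, read 6.31 and 6.38 in the Y1KO arrays and 6.60, 6.39, 6.43 and 6.37 in the WT arrays. Y1KO replicate 2 lay just above the lowest WT array, so the groups overlapped. Sox9 differed by -0.10 (SE 0.097, limma adjusted p = 0.615). The 95% interval, -0.32 to 0.12, reaches at most a 1.09-fold increase. Sox5 read 4.98 and 4.96 in Y1KO and 4.95, 4.97, 4.72 and 4.86 in WT. Here the Y1KO arrays sat beside the upper WT arrays, with a difference of 0.096 (SE 0.098, 95% interval -0.13 to 0.32, limma adjusted p = 0.643).

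Sox6, the partner of Sox5 in the SOXD subgroup, stood apart by value. It read 5.55 and 5.28 in Y1KO against 4.91, 4.85, 5.07 and 5.07 in WT, and a gap of 0.21 separated the lower Y1KO array from the highest WT array. Sox6 averaged 5.42 ± 0.19 (SD, n = 2) in Y1KO and 4.97 ± 0.11 (SD, n = 4) in WT, a difference of 0.45 (SE 0.11, 95% interval 0.19 to 0.70, limma adjusted p = 0.0344). The call was sensitive to the choice of arrays and model. Dropping WT replicate 1 (0.42, limma adjusted p = 0.0801) or WT replicate 2 (0.40, limma adjusted p = 0.0594) ended it. So did a model with no moderation of the variance (limma adjusted p = 0.144). The difference shrank to 0.31 when Y1KO replicate 1 was dropped but grew to 0.58 when Y1KO replicate 2 was dropped. The call was lost in both fits. Each of them keeps 1 Y1KO array, and far fewer of all genes were called. The loss therefore cannot be laid to the dropped array itself. The same limit holds wherever a Y1KO array is left out below. Sox13, the remaining SOXD gene, named after its values were seen, differed by -0.16 (SE 0.098, limma adjusted p = 0.39). Whether Sox6 changed differently from Sox5 was not tested.

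The DNA just upstream of the 2 genes that rose is shown with that of Acan, whose product is held in place by that of Hapln1, because SOX proteins bind short motifs in cartilage genes. The RefSeq promoter table (mouse build GRCm38.p6) held 8 of the 10 genes, all but Sox9 and Comp. The motifs ACAATG and ACAAAG were searched on both strands, do not overlap each other in these windows, and stand in capitals. They were chosen after the values were seen.
Sox6 (chr7:116038745-116038994, minus strand): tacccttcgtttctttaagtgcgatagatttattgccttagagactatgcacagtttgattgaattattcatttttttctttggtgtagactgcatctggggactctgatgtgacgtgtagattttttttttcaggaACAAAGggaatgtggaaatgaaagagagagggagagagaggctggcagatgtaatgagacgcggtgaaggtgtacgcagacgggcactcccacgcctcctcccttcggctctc
Hapln1 (chr13:89540386-89540528, plus strand): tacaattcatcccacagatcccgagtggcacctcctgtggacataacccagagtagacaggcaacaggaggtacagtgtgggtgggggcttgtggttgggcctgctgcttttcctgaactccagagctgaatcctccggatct
Acan (chr7:79052976-79053225, plus strand): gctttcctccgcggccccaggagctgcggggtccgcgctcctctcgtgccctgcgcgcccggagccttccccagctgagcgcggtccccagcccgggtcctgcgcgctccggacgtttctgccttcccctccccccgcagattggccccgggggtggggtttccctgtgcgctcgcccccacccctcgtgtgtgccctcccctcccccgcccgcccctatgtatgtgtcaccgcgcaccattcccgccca
The Sox6 window ends at 1 of 6 listed starts and lies inside the gene's RefSeq span. The Hapln1 window leaves off the 107 bases next to the listed start, which fall inside the gene's own RefSeq span. Sox6 held 1 match, ACAAAG on the printed strand, while the Hapln1 and Acan windows held none of these letters. Acan had a G and C content of 74.4%, against 55.2% for Hapln1 and 45.2% for Sox6. Over all 14 windows of 250 bases for the 8 genes, 6 held a match, 5 of them for Sox6 and the other for Sox5. Counted by gene, 2 of the 8 held a match, and the 6 starts of Sox6 are not independent windows. Among all 32851 windows of that length, the share with a match was 25.2%, 10.7% ACAATG and 16.5% ACAAAG. A match is a description of the letters and not a bound site.

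Ihh, the secreted signal of maturing chondrocytes, read 6.40 and 6.30 in Y1KO and 6.35, 6.06, 5.99 and 6.37 in WT. Y1KO replicate 1 lay above every WT array and Y1KO replicate 2 below 2 of them. The difference of 0.15 (SE 0.13, 95% interval -0.14 to 0.45, limma adjusted p = 0.56) was smaller than the WT range of 0.39. Of the other 19 measured hedgehog pathway genes, 2 rose and 2 fell (21.1% called, against 12.7% of all genes), with a median of 0.038. Gas1, a co-receptor that presents hedgehog ligands to the cell surface, fell by 1.17 (SE 0.10, limma adjusted p = 0.000478). The co-receptor gene Boc rose by 0.60 and Disp1, which releases the lipid-bearing ligand, rose by 0.79. Hhip, a decoy receptor that pathway activity induces, fell by 0.33 to 3.10 ± 0.06 (SD, n = 2) in Y1KO, against 3.43 ± 0.08 (SD, n = 4) in WT, at the dim end of the array. The receptor gene Ptch1 differed by 0.47 (SE 0.19, limma adjusted p = 0.175) and the transcription factor gene Gli1 by 0.14, neither passing the test. The transducer gene Smo, at -0.082, did not pass. Nor did Pth1r, the receptor of the parathyroid hormone-related signal that loops back on Ihh, at 0.32. Ptch1 passed with WT replicate 1 left out (0.62, limma adjusted p = 0.0157). With WT replicate 1 or WT replicate 4 left out, 3 pathway genes rose. The rising count was 0 by limma with either Y1KO array left out. The falling count was 1 when WT replicate 1, WT replicate 2, WT replicate 4 or either Y1KO array was left out, and with median centring, where Hhip lost its call.

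Acan, the aggrecan core protein gene, read 4.63 and 4.59 in Y1KO and 4.40, 3.84, 4.34 and 4.75 in WT. The Y1KO arrays lay within the WT range, below WT replicate 4 and above the others. Acan differed by 0.28 (SE 0.21, limma adjusted p = 0.501). Its 95% interval, -0.20 to 0.75, holds both a slight decrease and a 1.68-fold increase. The WT arrays spread over 0.91, the widest range of the 10 genes, with WT replicate 2 lowest.

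Hapln1, which fastens aggrecan to hyaluronan, had the largest difference of the 10. It read 5.87 and 6.17 in Y1KO, against 4.61, 4.18, 4.98 and 4.96 in WT. Both Y1KO arrays exceeded the highest WT array by 0.89 or more, which is wider than the WT range of 0.80. Hapln1 averaged 6.02 ± 0.21 (SD, n = 2) in Y1KO and 4.68 ± 0.37 (SD, n = 4) in WT, a difference of 1.34 (SE 0.22, 95% interval 0.85 to 1.83, limma adjusted p = 0.00529). That is a 2.53-fold increase with an interval of 1.80-fold to 3.55-fold. Its probe set moved to percentile 55.1 of all genes in Y1KO, against 34.9 in WT. The call ended with Y1KO replicate 2 left out (1.19, limma adjusted p = 0.0831) and with no moderation (limma adjusted p = 0.11), and it was kept when Y1KO replicate 1 or any 1 WT array was left out.

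**Figure D2:**
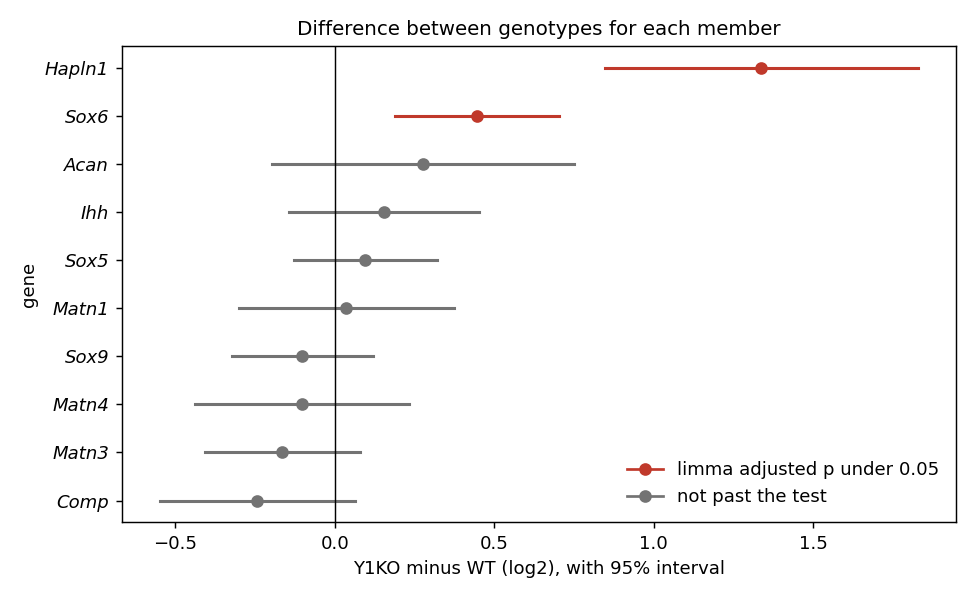
Difference between genotypes (x axis, Y1KO minus WT on the log2 scale) for each of the 10 genes, as points with 95% intervals from the limma model. The intervals of Hapln1 and Sox6, in red, lie above 0, and the other 8, in grey, cross it.

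Each link protein gene lies next to a gene of the aggrecan family in the mouse genome, with 0 coding genes between them in the RefSeq gene order, and the 4 pairs can be set side by side. Hapln1 rose by 1.34 while its neighbour Vcan, which codes for versican, the aggrecan relative of loose connective tissue, fell by 0.69 (SE 0.19, limma adjusted p = 0.0438). The versican probe set read 8.66 and 8.45 in Y1KO, against 9.29, 9.66, 8.91 and 9.11 in WT. Hapln3, the neighbour of Acan, rose by 0.85 (SE 0.19, limma adjusted p = 0.0211), with 6.11 and 5.98 in Y1KO against 5.06, 4.78, 5.45 and 5.49 in WT. For Acan itself the groups overlapped, as given above. Bcan, the brevican gene, best known from brain matrix, rose by 1.82 (SE 0.37, limma adjusted p = 0.0134), and its neighbour Hapln2 differed by 0.12 (limma adjusted p = 0.589). Hapln4 at 0.13 and Ncan, the neurocan gene, at 0.23 did not pass. Hapln2, Hapln4 and Ncan were named after their values were seen, and no difference between the genes of a pair was tested. Vcan lost its call when WT replicate 1, WT replicate 4 or either Y1KO array was left out, and with median centring (limma adjusted p = 0.0519). Hapln3 and Bcan lost theirs with either Y1KO array left out, and Bcan also with trend and robust moderation of the variance (limma adjusted p = 0.0614).

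**Figure D3:**
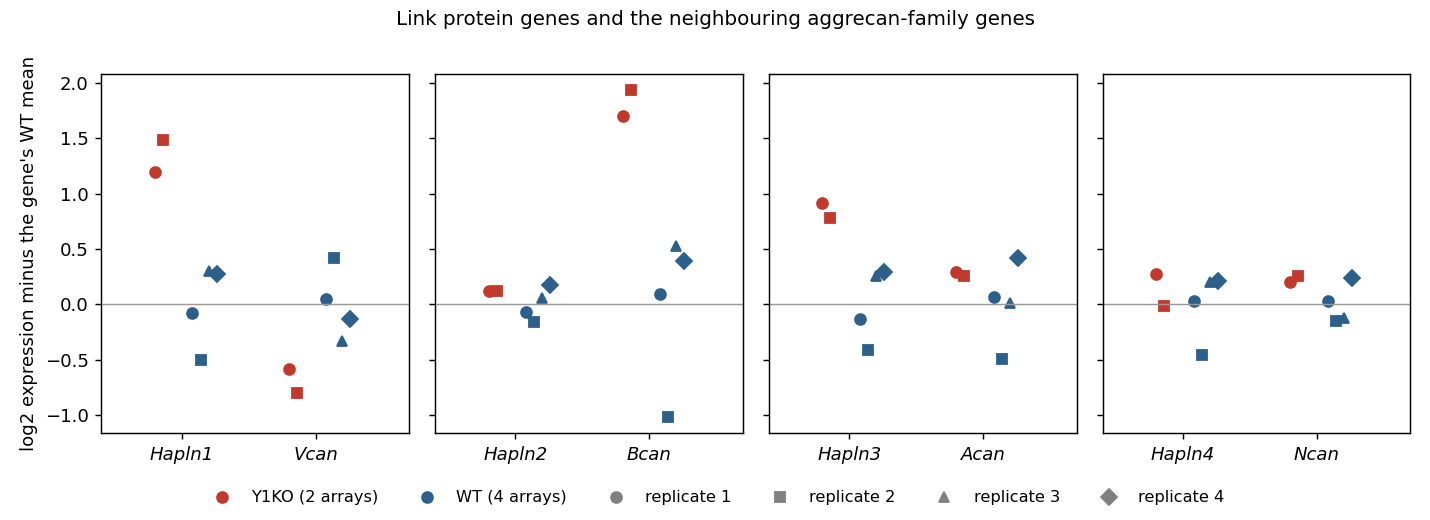
Expression of the 4 link protein genes and their neighbours of the aggrecan family, as log2 values minus each gene's WT mean (y axis), 1 point per array, Y1KO in red left of WT in blue. Hapln1, Hapln3 and Bcan have both Y1KO points above the WT points, Vcan has both below, and WT replicate 2 is the lowest WT point for 7 of the 8 genes and the highest for Vcan.

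Comp, the cartilage oligomeric matrix protein of the thrombospondin family, read 5.01 and 5.01 in Y1KO and 5.28, 5.02, 5.18 and 5.53 in WT. Both Y1KO arrays were below the WT arrays, but by 0.0074 only. Comp differed by -0.24 (SE 0.13, 95% interval -0.55 to 0.064), with a limma adjusted p = 0.331. Thbs4, a thrombospondin gene close to Comp and named after its values were seen, was 1.03 higher without passing the test (SE 0.31, limma adjusted p = 0.0677), and it passed with WT replicate 3 left out (1.26, limma adjusted p = 0.0167) and with array weights (1.14, limma adjusted p = 0.0212).

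The matrilins are adaptor proteins with von Willebrand factor A domains, and Matn1, Matn3 and Matn4 showed no called change. Matn3, the matrilin of growth plate cartilage, read 5.39 and 5.41 in Y1KO and 5.62, 5.48, 5.42 and 5.73 in WT. As for Comp, the groups parted by little, 0.011, with a difference of -0.16 (SE 0.11, 95% interval -0.41 to 0.079, limma adjusted p = 0.421). Matn1, the first matrilin found in cartilage, read 3.92 and 3.91 in Y1KO and 4.02, 3.68, 3.67 and 4.16 in WT. Its Y1KO arrays fell in the middle of the WT arrays, and the difference of 0.036 (SE 0.15, 95% interval -0.30 to 0.37, limma adjusted p = 0.926) turned its sign when WT replicate 2 (-0.032) or WT replicate 3 (-0.035) was left out. Matn4, a matrilin with a broader tissue range, read 4.44 and 4.32 in Y1KO and 4.38, 4.20, 4.61 and 4.74 in WT. These groups overlapped as well, with -0.10 (SE 0.15, 95% interval -0.44 to 0.23, limma adjusted p = 0.76). Matn2, the family member of wider distribution and named after its values were seen, rose by 0.44 (SE 0.12, limma adjusted p = 0.0466), and it lost the call when WT replicate 1, WT replicate 3, WT replicate 4 or either Y1KO array was left out.

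Counting arrays rather than tests, the Y1KO arrays lay beyond all WT arrays for 4 of the 10 genes, Hapln1 and Sox6 above and Comp and Matn3 below. Over all genes 34.8% had such separate groups, 17.5% above and 17.3% below, so the count of 4 is near the background. Within WT the 10 genes did not vary evenly. WT replicate 4 held the highest WT value for 7 of the 10 and WT replicate 2 lay below the gene's WT mean for 9 of the 10. After median centring of the arrays the counts were 5 and 9. The array medians over all probe sets ran from 5.30 to 5.37, with WT replicate 4 highest. The WT SD exceeded the median of all genes, 0.125, for 6 of 6 matrix genes and for Ihh, and for 0 of the 3 Sox genes, whose WT SD lay between 0.106 and 0.113. The matrix genes ranged from 0.14 for Matn3 to 0.38 for Acan.

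The genes whose 6 array values, each taken from its own WT mean, came closest to those of Hapln1 were Adgrd1, an adhesion G protein-coupled receptor gene, Col24a1, a fibrillar collagen gene, and Slc2a13, an inositol transporter gene. Their root mean square distances from Hapln1 were 0.061, 0.083 and 0.096, and they differed between genotypes by 1.33, 1.35 and 1.27. In all 3 of them, as in Hapln1, WT replicate 2 was the lowest array. The closest to Sox6 were Bdh1, a ketone body enzyme gene, L3mbtl3, a chromatin reader gene, and 2010204K13Rik, at distances of 0.036, 0.052 and 0.054. They differed by 0.44, 0.41 and 0.41, with Y1KO replicate 1 highest in each. These distances describe 6 arrays of 2 genotypes and carry no test.

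Other genes of the cartilage programme were counted in lists, to be read against the 12.7% of all genes that were called. That share does not apply to fits with a Y1KO array left out, where far fewer of all genes were called. Lower list counts in those fits do not show that a list depends on the array left out. All lists, the hedgehog and marker lists included, were chosen with earlier results of these data known. The part of that choice in any share above 12.7% was not tested. Of 8 cartilage collagen genes, 2 rose and 2 fell (50% called), with a median of 0.21. Col2a1, the main collagen of cartilage, fell by 1.59 (SE 0.17, limma adjusted p = 0.00118) to 8.85 ± 0.05 (SD, n = 2) in Y1KO, against 10.44 ± 0.30 (SD, n = 4) in WT, and Col10a1, the collagen of enlarged chondrocytes, fell by 0.70. Col11a1 and Col11a2, whose chains form fibrils with collagen II in cartilage, rose by 1.25 and 1.28. Col2a1 fell while Sox9 and Acan did not pass the test in the same arrays, and the difference between their changes was not tested. With Y1KO replicate 1 left out 1 collagen gene rose and 2 fell, and with Y1KO replicate 2 left out 1 rose and 1 fell. Col11a2 also lost its call with trend and robust moderation (limma adjusted p = 0.0654).

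Of 23 other cartilage matrix genes measured, 3 rose and 2 fell (21.7% called), with a median of 0.12. Beside Bcan, Hapln3, Vcan and Matn2, the leucine-rich repeat protein gene Prelp fell by 1.14 (SE 0.26, limma adjusted p = 0.0225). By limma 0 rose and 0 fell with either Y1KO array left out. The falling count was 1 with WT replicate 1 or WT replicate 4 left out and with median centring. Of 25 other chondrocyte regulators, 1 rose and 2 fell, with a median of -0.0082, and the 12% called is below the share of all genes. Foxc1, a forkhead factor gene of skeletal progenitors, fell by 1.75 (SE 0.26, limma adjusted p = 0.0036), the SOX9 cofactor gene Zfp219 fell by 0.34 and Mef2c, a factor of chondrocyte enlargement that also acts in bone cells, rose by 1.01. Prelp and Mef2c lost their calls with trend and robust moderation (limma adjusted p = 0.0547 and 0.0604). Arid5b, another SOX9 cofactor gene, was 0.56 lower without passing (limma adjusted p = 0.0628), and it passed with WT replicate 2 left out (-0.43, limma adjusted p = 0.0409), with array weights (limma adjusted p = 0.0455) and with dim genes filtered out (limma adjusted p = 0.0498). Zfp219 lost its call when any 1 of the 6 arrays was left out, and with quantile normalization, median centring, every probe set kept, or trend and robust moderation. With either Y1KO array left out 0 regulators rose by limma and 1 fell, and the falling count was also 1 with WT replicate 1, WT replicate 3 or WT replicate 4 left out. With median centring 3 rose and 1 fell.

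Genes for building and sulfating chondroitin, the sugar chain that aggrecan carries, included those of enzymes and transporters. Of the 27 measured, differences were above 0 for 23 and below 0 for 4. By the test 11 rose and 1 fell (44.4% called), with a median of 0.34. Chpf2, which lengthens the chain, rose by 0.91 (SE 0.12, limma adjusted p = 0.00214), Papss2, which makes the sulfate donor and is mutated in a cartilage dysplasia, rose by 0.87 and B3gat3, which completes the linker to the core protein, rose by 0.63. Csgalnact1, which starts the chain, fell by 1.24 (SE 0.21, limma adjusted p = 0.00676). These genes serve chondroitin sulfate proteoglycans in general and not aggrecan alone, and not all of them are particular to chondroitin. Leaving out Y1KO replicate 1 made the rising count 4, leaving out Y1KO replicate 2 made it 1, and 0 fell by limma in both cases. The falling count was 3 with WT replicate 3 left out. Of 11 genes of aggrecan-cleaving and related proteases and their inhibitor Timp3, 1 rose and 3 fell (36.4% called), with a median of -0.39. The aggrecanase gene Adamts5 and the versican-cleaving Adamts1 fell by 1.49 and 1.09, and the collagenase gene Mmp13 fell by 2.19, while Adamts15 rose by 1.47. With either Y1KO array left out 0 rose by limma and 1 fell. Adamts5 and Adamts1 also lost their calls with trend and robust moderation (limma adjusted p = 0.092 and 0.106), where 1 gene fell. So did Adamts5 with WT replicate 3 left out (limma adjusted p = 0.0521), and Adamts1 with WT replicate 1 (limma adjusted p = 0.053) or WT replicate 4 (limma adjusted p = 0.0869) left out. In the lists of hedgehog, collagen, matrix, regulator, chondroitin and protease genes together, 20 rose and 12 fell. The share called in each list is given above, against 12.7% of all genes (6.1% higher and 6.64% lower in Y1KO). With either Y1KO array left out both pooled counts were lower, as was the number called over all genes.

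**Figure D4:**
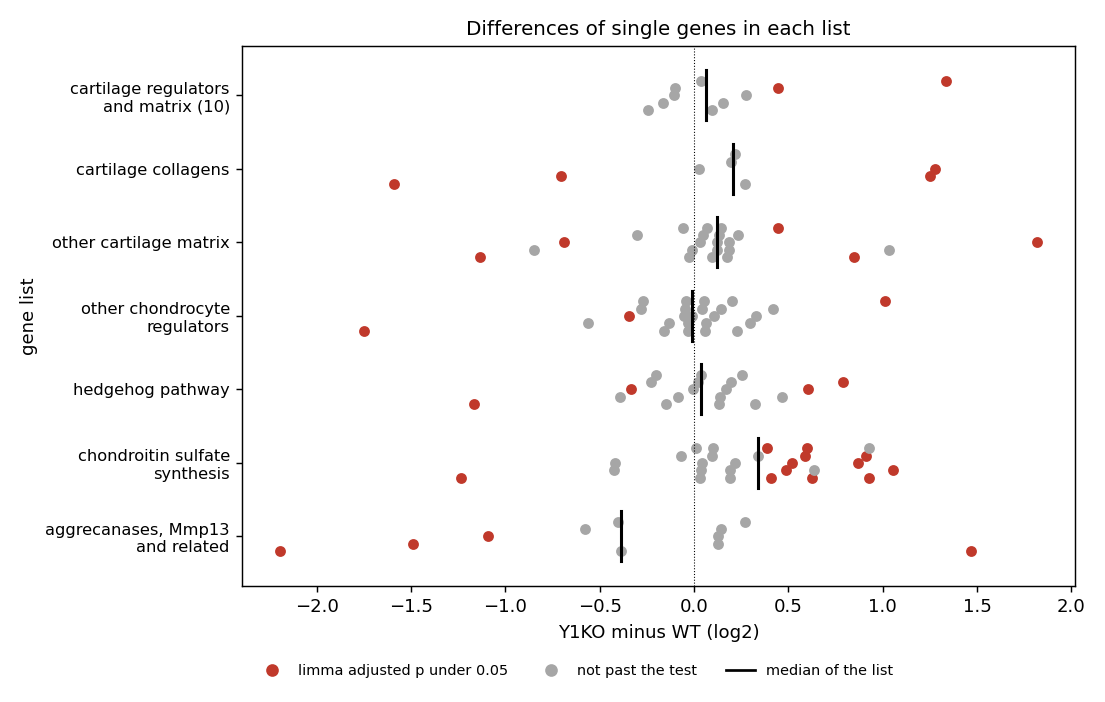
Difference between genotypes (x axis, Y1KO minus WT, log2) for every measured gene of the 10 members and of 6 related lists, with called genes in red, other genes in grey and the list median as a black bar. Hapln1 is the rightmost point of its row, and the chondroitin sulfate list has 11 red points above 0 and 1 below.

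Markers of the sorted cells and of other cells were read in the same arrays. The osteoblast markers measured, Col1a1, Col1a2, Sp7, Alpl, Ibsp, Sparc, Phex and Dmp1, all lay above the median of all genes in WT. By limma 0 of the 8 passed the test, against 4 higher at an unadjusted p under 0.05. The share of all genes at that unadjusted limit was not counted. The mean of the 8 markers per array was 12.1 to 12.2 in Y1KO and 11 to 11.9 in WT. All 8 differences were above 0, with a median of 0.33. For 7 of the 8 both Y1KO arrays lay above all WT arrays, against 17.5% of all genes. The osteocyte-enriched matrix gene Dmp1 shared with Hapln1 its lowest array, WT replicate 2, and its highest WT array, WT replicate 3, reading 11.79 and 11.96 in Y1KO and 10.07, 8.85, 11.19 and 10.74 in WT. Dmp1 differed by 1.66 without passing the test (limma adjusted p = 0.0789), and it passed with WT replicate 2 left out (1.21, limma adjusted p = 0.021) or with WT replicate 3 left out (1.99, limma adjusted p = 0.035). It also passed with array weights (1.71, limma adjusted p = 0.0244), where it was the 1 osteoblast marker called. Ibsp, the bone sialoprotein gene, was 0.47 higher without passing.

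Of 10 macrophage markers, 6 rose and 0 fell (60% called, against 12.7% of all genes). Their list mean per array was 5.79 to 6.22 in Y1KO and 5.38 to 5.66 in WT. Adgre1 and Csf1r rose by 0.81 and 0.57. Leaving out WT replicate 4 made the count 1. Without Y1KO replicate 2 the count fell as well, with Adgre1 at 0.61 and Csf1r at 0.36. Without Y1KO replicate 1 the count was unchanged. Y1KO replicate 2 had the higher list mean, 6.22 against 5.79 in Y1KO replicate 1. Of 10 smooth muscle and pericyte markers, 8 fell and 0 rose (80% called). Their list mean was 7.93 to 8.06 in Y1KO and 8.95 to 9.35 in WT. Myl9 and Mylk fell by 1.60 and 1.32, and the count was 5 with either Y1KO array left out. Of 7 adipocyte markers, 4 fell (57.1% called), with a list mean of 5.43 to 5.47 in Y1KO and 6.45 to 6.97 in WT. Lpl and Pparg fell by 2.71 and 1.45. Of 8 tendon and fibroblast markers, 2 rose (25% called), the tendon factor genes Scx by 0.83 and Mkx by 0.58. The list mean was 6.66 to 6.72 in Y1KO and 6.26 to 6.61 in WT. The rising count was 1 with WT replicate 4 or Y1KO replicate 1 left out, and 1 gene fell in the first of these cases. Scx lost its call with Y1KO replicate 2 left out, and Mkx with Y1KO replicate 1 or WT replicate 4 left out. Of 8 endothelial markers 0 passed by limma or at an unadjusted p under 0.05, among them Kdr at 0.12 and Erg at 0.11, with means of 4.33 to 4.39 in Y1KO and 4.24 to 4.48 in WT. Of 4 neural crest and glia markers 0 passed by limma and 1 was lower at an unadjusted p under 0.05, with S100b at -0.52 and Erbb3 at -0.11 among them, with means of 5.02 to 5.22 in Y1KO and 5.21 to 5.28 in WT. S100b passed with dim genes filtered out (limma adjusted p = 0.0472) and with array weights (limma adjusted p = 0.0415). A log2 array scale has no 0, so no marker can be called absent. For the counts at an unadjusted p, no share of all genes was counted. The part of any of these lists in the Hapln1 and Sox6 differences was not tested.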

How the data were processed

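RNA of 6 samples, 2 Y1KO and 4 WT, was measured on 1-colour arrays. The authors deposited log2 expression values per probe set, and the submitters' processing notes list RMA and limma, without versions or settings. No source used here gives the genome build or the probe annotation behind these values. The array medians lay between 5.30 and 5.37, so no further normalization was applied. The number of arrays limits the precision. Of 28815 probe sets, 21780 had 1 symbol in the public platform annotation, 1605 had several and 5430 were not named, and probe sets with several or no symbols were not used. The probe set with the highest mean stood for a gene, which left 19935 genes. Genotypes were compared with limma 3.58.1 in R 4.3.3 (lmFit, eBayes), two-sided, with Benjamini-Hochberg adjustment over all genes and 95% intervals. The procedure was tested on simulated data.

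The members and lists were chosen with earlier results of these data known. Named genes were the 10 members, the 4 of smallest p in each related list, Col2a1, Col10a1 and core hedgehog genes, the 2 of smallest p in each marker list, Col1a1, and the 3 genes closest in pattern to the called regulator and matrix gene of largest difference. Listed genes without a single-symbol probe set, Pthlh, Runx2 and Bglap among them, were not analysed here. Alternatives were quantile normalization, median centring, a filter at the 40th percentile, other handling of probe sets, trend and robust eBayes, no moderation, array weights, a replicate block, and leaving out each array. Promoter windows came from RefSeq.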

Additional observations from a re-analysis of the deposited data

Results flagged for a closer look

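In 65 genes named here, the highest or lowest of the 4 WT arrays was checked for a gap to its nearest neighbour that takes up most of the WT range. Chance passes that limit in about 1 of 20 genes. It was passed by 2, both through a low WT replicate 2, and by 0 of the 10 cartilage members. Adamts15, an aggrecanase gene, read 5.47 in WT replicate 2. Ibsp, the bone sialoprotein gene, read 12.3 in WT replicate 2. For Hapln1 and Acan WT replicate 2 was also the lowest array, at 4.18 and 3.84, short of the limit.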

How the results depend on the processing

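The counts of members higher (2) and lower (0) were the same with quantile normalization, median centring, the filter at the 40th percentile, both other ways of handling probe sets, trend and robust options, array weights and the replicate block. Without moderation 0 members were higher, 344 genes in all were called, and 1 and 2 genes of the related lists were higher and lower. The cause was not tested beyond the loss of pooled variance that the setting itself brings. Leaving out 1 array gave 0 to 2 members higher, 487 to 2462 genes called in all, 2 to 21 related genes higher and 4 to 13 lower, and the lowest counts came without Y1KO replicate 2, which leaves 1 Y1KO array that is assumed to vary like the WT arrays. Signs turned for small uncalled differences: Matn1 was -0.018 with array weights and Matn4 was 0.088 with the replicate block. WT replicate 3 and WT replicate 4 have no Y1KO array of the same number, so the block compares replicates 1 and 2 only. Matn4 read 4.61 and 4.74 in the WT arrays thus left out. Leaving out 1 array gave -0.035 to 0.13 for Matn1, -0.019 to 0.28 for Hapln4 and -0.32 to 0.092 for Erbb3. Matn1 turned without WT replicate 2 (3.68) or WT replicate 3 (3.67), its lowest WT arrays. Hapln4 turned without its lowest WT array, WT replicate 2 (6.41), or its higher Y1KO array, Y1KO replicate 1 (7.14). Erbb3 turned without its lower Y1KO array, Y1KO replicate 1 (4.14). Why these arrays lay apart was not tested, nor was the turn of Matn1 with array weights. The replicate block, resting on replicates 1 and 2 alone, called 2181 genes, with 2 members higher, against 2541 without it. Left out of its Dmp1 difference were WT replicate 3 and WT replicate 4, at 11.19 and 10.74. In that fit 3 osteoblast markers rose, against 0 without it, Dmp1 (2.42, limma adjusted p = 0.00389) and Ibsp (0.62, limma adjusted p = 0.0475) among them, Thbs4 passed (1.46, limma adjusted p = 0.00424), and Matn2 did not (0.30, limma adjusted p = 0.166). Hhip and Zfp219 (limma adjusted p = 0.114 and 0.0982), Mkx (limma adjusted p = 0.0536) and 2010204K13Rik (limma adjusted p = 0.053) also lost their calls with the block. WT and Y1KO share only the numbers 1 and 2, and same-numbered arrays had deviations from their group means that correlated at 0.01 and -0.20 across genes. The deviations of the 2 Y1KO arrays mirror each other, so these correlations cannot decide whether the numbers pair the samples. The filter at the 40th percentile left out Sox5, Acan, Matn1 and Matn4, which have no value there. Over all member differences and alternatives, 135 of 146 kept their sign and side of the threshold, 7 lost the call and 4 turned sign. Signal over background limits Matn1 most, at percentile 22.1 in Y1KO and 21.7 in WT.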
